A study of Homo sapiens with 6 samples.

Results

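The genes described here handle lactate and pyruvate around lactate dehydrogenase A. They are 4 lactate dehydrogenase genes (LDHA, LDHB, LDHC and LDHD), 3 monocarboxylate transporter genes (SLC16A1, SLC16A3 and SLC16A7), BSG, and both subunit genes of the mitochondrial pyruvate carrier (MPC1 and MPC2). These 10 genes were taken by symbol from the 56638 gene symbols in the count files, of which 30877 had a count in any library, and 9 of the 10 had one. The experiment sequenced RNA of human colorectal cancer cells in 3 libraries labelled control siRNA, from cells given a nonspecific siRNA, and in 3 libraries labelled GLCC1 siRNA, from cells given siRNA against the long noncoding RNA lncRNA-AF339830, which the paper calls GLCC1. No other treatment separates the groups by the labels, and all cells were grown in the same medium with serum. The cell line is SW480 in the labels but DLD-1 in the methods of the paper, and its identity was not tested. The groups follow the sample titles, source names and genotypes, but the names of the libraries read the other way round (the control titles carry the lncRNA's code and the siRNA titles the control's), so every direction below holds only for the libraries as labelled and would turn with the other naming. Which GLCC1 siRNA was used is not clear from the labels. Loss of GLCC1 and other effects of the siRNA therefore cannot be told apart here. Nothing says that the libraries came from separate cultures, so p-values measure only the spread between these libraries.

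Lactate dehydrogenase is a tetramer of A and B subunits that interconverts pyruvate and lactate with NADH. Enzymes rich in A subunits are known for making lactate in glycolytic tumour cells, and those rich in B subunits for using it. Lactate crosses the plasma membrane with a proton through the monocarboxylate transporters, of which MCT1 and MCT4 need the glycoprotein basigin to reach the cell surface, and pyruvate enters mitochondria through the carrier formed by MPC1 and MPC2. The comparison addresses whether silencing GLCC1 changes genes of glucose metabolism, among which the study follows LDHA.

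The number of read pairs assigned to genes ranged from 11948790 to 19042516 per library. Replicate 2 of the GLCC1 siRNA libraries was the shallowest, had the highest share of reads on no gene (14.2%, against 11.2% to 12.7% in the other libraries) and stood apart from the other 2 of its group, with a chi-square per degree of freedom of 18.1 and 19.0 against 3.28 between those 2 and 1.93 to 4.16 between control libraries, so results that rest on it are also given without it. GLCC1 has no row in the files. FARP1, the annotated gene at its locus, had 109 to 113 CPM (counts scaled to a common library size) in the control libraries and 63.2 to 65.6 in the GLCC1 siRNA libraries (adjusted p = 9.2e-06 from edgeR), and whether its reads come from GLCC1 was not tested. Of 10 colon epithelial markers 6 fell, 0 rose and 4 did not pass. Of all genes with a mean of 1 CPM or more, 24.8% fell. The summed level of the markers went from between 5551 and 6073 CPM to between 2210 and 2615 CPM. KRT8 (mean 3584 to 1177 CPM), KRT19 (881 to 347) and KRT18 (423 to 120) led this sum. EPCAM had a log2 fold change of -0.30 (adjusted p = 0.045 from edgeR). VIL1 was higher in all GLCC1 siRNA libraries but did not pass (0.21, adjusted p = 0.067 from edgeR), and neither did CDX2 (-0.24). Of 5 leukocyte markers PTPRC was at 0 in all 6 libraries and the sum reached at most 0.392 CPM. Of 6 fibroblast and endothelial markers COL1A2, DCN and PECAM1 were at 0, and of the 3 tested 1 fell and 2 did not pass. COL1A1 went from between 11.8 and 14.99 CPM to between 6.68 and 7.94 CPM (log2 fold change -0.86, adjusted p = 2.9e-04 from edgeR), PDGFRB had 4.06 to 5.26 CPM and VWF 0.318 to 1.40 CPM over all libraries, and the sum of this list went from between 16.6 and 20.8 CPM to between 11.1 and 14.6 CPM. The part of the marker changes in the results below was not tested. The labels give 1 cultured line for all libraries, so the design holds no mix of tissue cell types. In bulk RNA a shift between cells within the line and a change of RNA per cell cannot be told apart.

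The promoter window at the more upstream of 2 LDHA starts in the RefSeq table is shown because the proteins of MYC and HIF1A, whose values are given further down, are known to bind there. The RefSeq window of 300 bases at chr11:18394313-18394612 of GRCh38.p14, on the plus strand, runs from 250 bases before the annotated start to 50 bases after it, and capitals mark the E-box CACGTG.

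LDHA promoter: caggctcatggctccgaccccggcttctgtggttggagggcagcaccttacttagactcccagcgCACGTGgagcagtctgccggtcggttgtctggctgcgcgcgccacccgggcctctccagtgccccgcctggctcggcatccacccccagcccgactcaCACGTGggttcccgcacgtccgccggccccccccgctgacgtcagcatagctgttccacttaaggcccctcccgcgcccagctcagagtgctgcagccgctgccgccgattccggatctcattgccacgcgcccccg

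The window held 2 E-boxes, which begin 185 and 87 bases before the start. The motif is its own reverse complement, so that both strands are covered. Of 35116 such windows in the RefSeq table, 7.26% held the E-box at least once and 0.664% held it 2 or more times. The shorter core ACGTG, which lies inside every E-box and was searched on both strands, matched 5 times in the LDHA window, of which 4 lay within the E-boxes, and 21.4% of all windows held it. Of the 10 genes, 8 matched the table with 17 windows, while LDHD and SLC16A1 had no window and were not searched. The E-box was found in windows of 2 of the 8, LDHA and BSG. Of all 27305 genes with such windows, 8.8% held it in at least 1. The other LDHA window, at chr11:18396101-18396400, held 0 E-boxes and 0 cores. A match describes the letters only.

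LDHA had the largest log2 fold change of the 8 genes with at least 1 CPM. Of the 9 tested, 5 fell (LDHA, LDHB, SLC16A1, SLC16A3 and MPC1), 0 rose, and 4 did not pass an adjusted p of 0.05 (LDHC, LDHD, BSG and MPC2). SLC16A7 could not be tested. Of all 23074 genes tested, 7293 passed (31.6%), of which 3864 fell (16.7% of those tested) and 3429 rose (14.9%). Among 14875 genes whose mean reached 1 CPM, 45.1% passed and 24.8% fell. The median log2 fold change of the 9 genes was -0.30, against 0.03 for all genes tested, and that of the 8 with at least 1 CPM was -0.34, against -0.03. LDHC passed the filter on low counts through 1 library. Each fold change is the GLCC1 siRNA level over the control level, given with its standard error (SE) and with an adjusted p from edgeR's quasi-likelihood test over all genes. CPM are scaled by TMM factors, and levels are means ± SD over 3 libraries.

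**Figure D1:**
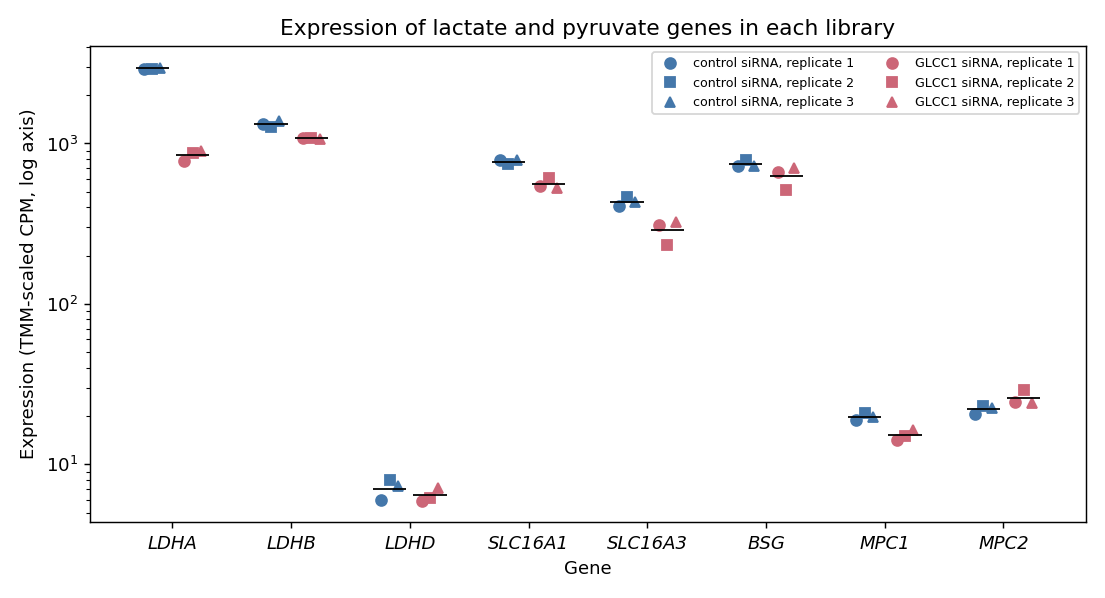
Expression of the 8 genes with at least 1 CPM (log axis), with circles, squares and triangles for replicates 1, 2 and 3 of the control siRNA (blue) and GLCC1 siRNA (red) libraries and a line at each group mean. LDHA falls from a mean of 2942 to 849.7 CPM, whereas the libraries of LDHD overlap.

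LDHA encodes the A (muscle) subunit of lactate dehydrogenase and lies on chromosome 11 (18416107 to 18429972 of hg19, plus strand), with 8 exons in its canonical transcript. It had 2931, 2924 and 2972 CPM in control replicates 1, 2 and 3, and 782, 872 and 895 CPM in GLCC1 siRNA replicates 1, 2 and 3. All control libraries lay far above all GLCC1 siRNA libraries, and the spread within each group was small beside the gap. The mean went from 2942 ± 25.6 (SD, n = 3) to 849.7 ± 60.1 CPM (SD, n = 3), 28.9% of the control level by the fitted fold, a log2 fold change of -1.79 (SE 0.08, 95% interval -1.96 to -1.62, adjusted p = 1.1e-08). LDHA reads made up 0.279% to 0.285% of a control library's counts and 0.0815% to 0.0926% of those of a GLCC1 siRNA library. Without GLCC1 siRNA replicate 2 the log2 fold change was -1.81.

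In order of CPM, LDHA was gene number 16 of the control libraries and number 64 of the GLCC1 siRNA libraries, and the difference of 2093 CPM between the group means was number 3 in size among all genes. Of 57 genes with a mean of 1000 CPM or more over the 6 libraries, only ACTG1, a cytoplasmic actin, had a log2 fold change of larger size, in either direction. Among 2370 genes with 100 CPM or more, LDHA was number 9 by this size, after IFIT1, CLDN2, DDX60L, ACTG1, VGF, ALDOC, DDX58 and KRT18. These orders by size do not depend on which group is called the control. The count of LDHA can share reads with processed pseudogenes, which are near copies of its mRNA. Of 6 LDHA pseudogenes in the files 3 had a count, and LDHAP4, with nearly all of these counts, had between 3.06 and 3.63 counts per 100 LDHA counts in every library. LDHAP4 had a log2 fold change of -1.90 (SE 0.10), and adding the pseudogene counts gave -1.80 for LDHA. Alignments that were not unique (1870366 to 3372525 per library) are in no gene's count. Adding pseudogene counts therefore does not recover reads that match both LDHA and a pseudogene.

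LDHB, on chromosome 12 (21788276 to 21910791, minus strand), encodes the B (heart) subunit. It had 1328, 1267 and 1376 CPM in the control libraries and 1074, 1083 and 1073 CPM in the GLCC1 siRNA libraries. The groups did not overlap, and the GLCC1 siRNA libraries were almost level with each other. The mean went from 1324 ± 54.4 to 1077 ± 5.42 CPM (SD, n = 3 each), a log2 fold change of -0.30 (SE 0.07, adjusted p = 0.0057). The call was lost with library totals as the only scaling (log2 fold change -0.18, adjusted p = 0.080) and without control replicate 3 (-0.27, adjusted p = 0.051). The 3 LDHB pseudogenes in the files had 0 counts, which leave out alignments that were not unique.

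The order of LDHA and LDHB differed between the groups. Per kilobase of canonical transcript, LDHA had 1313 ± 11.4 CPM and LDHB 1016 ± 41.7 CPM in the control libraries (SD, n = 3), against 379 ± 26.8 and 826 ± 4.16 in the GLCC1 siRNA libraries. The share of LDHA in the sum of both, per kilobase, went from 56.4% ± 0.83 (SD, n = 3; 55.7% to 57.3%) to 31.4% ± 1.52 (SD, n = 3; 29.7% to 32.7%). The ratio of LDHA to LDHB counts within a library needs no scaling between libraries. It was 2.21, 2.31 and 2.16 in control replicates 1, 2 and 3 and 0.728, 0.805 and 0.834 in GLCC1 siRNA replicates 1, 2 and 3. The control ratios were all above 1 and the others all below it, and the log2 ratio differed by -1.50 (SE 0.07, exact two-sided permutation p = 0.1, the smallest that 3 against 3 libraries allow).

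LDHD, which encodes a mitochondrial dehydrogenase of D-lactate, lies on chromosome 16 (75145758 to 75150678, minus strand). It had 5.97, 7.94 and 7.29 CPM in the control libraries and 5.94, 6.20 and 7.10 CPM in the GLCC1 siRNA libraries. The groups overlapped, and the log2 fold change was -0.14 (SE 0.15, 95% interval -0.47 to 0.19, adjusted p = 0.52). LDHC, the testis form on chromosome 11 next to LDHA, had counts of 0, 1 and 0 in control replicates 1, 2 and 3 and of 0, 0 and 5 in GLCC1 siRNA replicates 1, 2 and 3, too few for a fold change to be read (adjusted p = 0.39).

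**Figure D2:**
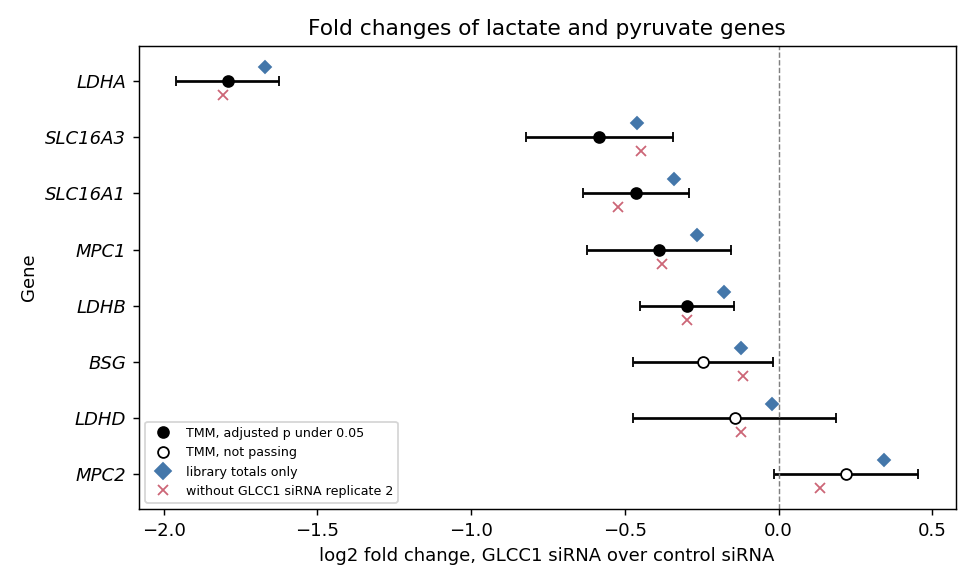
Log2 fold changes (GLCC1 siRNA over control siRNA) of the 8 genes with at least 1 CPM, with 95% intervals, filled where the adjusted p was under 0.05. Blue diamonds give the value with library totals only and red crosses that without GLCC1 siRNA replicate 2, and LDHA lies apart at -1.79, with the next gene, SLC16A3, at -0.58.

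Both monocarboxylate transporter genes with substantial counts fell. SLC16A1 encodes MCT1, the widely expressed carrier that moves lactate in and out of cells, and lies on chromosome 1 (113454469 to 113500215, minus strand). It had 785, 739.6 and 789 CPM in the control libraries and 545, 608 and 526 CPM in the GLCC1 siRNA libraries. The lowest control library lay above the highest GLCC1 siRNA library, which was replicate 2. The mean went from 771 ± 27.3 to 559.5 ± 42.9 CPM (SD, n = 3 each), a log2 fold change of -0.46 (SE 0.08, 95% interval -0.64 to -0.29, adjusted p = 5.9e-04). Its neighbour on the other strand, SLC16A1-AS1, rose from 2.64 ± 0.24 to 4.40 ± 0.49 CPM (SD, n = 3 each; log2 fold change 0.73, adjusted p = 0.0071). Whether the counting used strand is not given in the sources used here, so reads of such pairs may not be told apart.

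SLC16A3 encodes MCT4, the carrier known for lactate export from glycolytic cells, and lies on chromosome 17 (80175810 to 80219005, plus strand). It had 406, 465 and 429.9 CPM in the control libraries and 311, 234 and 323 CPM in the GLCC1 siRNA libraries. The groups did not overlap, and GLCC1 siRNA replicate 2 was far below the others. The mean went from 434 ± 29.5 to 289 ± 48.2 CPM (SD, n = 3 each), a log2 fold change of -0.58 (SE 0.11, 95% interval -0.82 to -0.34, adjusted p = 0.0012). Without replicate 2 of the GLCC1 siRNA libraries the log2 fold change was -0.45 and still passed. In GENCODE 44, which is not the authors' annotation, 18.5% of its canonical transcript overlaps exons of CSNK1D, a kinase gene whose log2 fold change was -0.09 (adjusted p = 0.47).

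SLC16A7 encodes MCT2, a carrier of high affinity for pyruvate and lactate. Its count was 0 in all 6 libraries, which allows a level of up to 0.158 to 0.251 CPM, depending on the depth of the library and for counting error only.

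BSG encodes basigin, the chaperone of MCT1 and MCT4, and lies on chromosome 19 (571277 to 583494, plus strand). It had 719, 788 and 725 CPM in the control libraries and 661, 514 and 707 CPM in the GLCC1 siRNA libraries. The groups did not overlap, but GLCC1 siRNA replicate 3 lay close to the controls and replicate 2 well below. The log2 fold change was -0.24 (SE 0.11, 95% interval -0.47 to -0.02) and did not pass the test over all genes (adjusted p = 0.097). It was -0.12 without GLCC1 siRNA replicate 2 (adjusted p = 0.079) and -0.34 without GLCC1 siRNA replicate 3 (adjusted p = 0.032), and a filter of 1 count in any library also brought it past the threshold (adjusted p = 0.028).

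The ratio of SLC16A1 to SLC16A3 counts was 1.93, 1.59 and 1.83 in the control libraries and 1.75, 2.60 and 1.63 in the GLCC1 siRNA libraries. These overlapped, with GLCC1 siRNA replicate 2 above all others. The log2 ratio differed by 0.13 (SE 0.23, exact two-sided permutation p = 0.8), and by -0.075 without GLCC1 siRNA replicate 2, so no difference between the 2 transporters was detected at this replication.

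Of the subunits of the mitochondrial pyruvate carrier, MPC1 fell and MPC2 did not pass the test. MPC1, on chromosome 6 (166778407 to 166796501, minus strand), had 18.9, 20.9 and 19.8 CPM in the control libraries and 14.2, 15.03 and 16.3 CPM in the GLCC1 siRNA libraries. The groups did not overlap. The log2 fold change was -0.39 (SE 0.11, 95% interval -0.62 to -0.15, adjusted p = 0.014). The call was lost with library totals only (-0.27, adjusted p = 0.074), without control replicate 2 (adjusted p = 0.077), without control replicate 3 (adjusted p = 0.058) and without GLCC1 siRNA replicate 1 (adjusted p = 0.067).

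MPC2, on chromosome 1 (167885913 to 167906310, minus strand), had 20.6, 23.0 and 22.6 CPM in the control libraries and 24.3, 29.0 and 24.1 CPM in the GLCC1 siRNA libraries. Here the GLCC1 siRNA libraries were the higher ones, without overlap, and replicate 2 was the highest. The log2 fold change was 0.22 (SE 0.11, 95% interval -0.02 to 0.45) and did not pass (adjusted p = 0.15), while it was 0.14 without GLCC1 siRNA replicate 2 (adjusted p = 0.20) and passed with library totals only (0.34, adjusted p = 0.027). In GENCODE 44, 8.37% of its canonical transcript overlaps exons of DCAF6, a ubiquitin ligase substrate receptor gene, which rose from 34.3 ± 1.95 to 71.8 ± 4.69 CPM (SD, n = 3 each; adjusted p = 2.2e-06), and the part of DCAF6 reads in the MPC2 count was not tested.

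The ratio of MPC1 to MPC2 counts was 0.917, 0.911 and 0.875 in the control libraries and 0.586, 0.519 and 0.675 in the GLCC1 siRNA libraries. The groups did not overlap, and the log2 ratio differed by -0.61 (SE 0.11, exact two-sided permutation p = 0.1). The share of MPC1 in the counts of both went from 47.4% ± 0.64 to 37.1% ± 3.07 (SD, n = 3 each). Per kilobase of canonical transcript it went from 68.9% ± 0.55 to 59.2% ± 3.17 (SD, n = 3 each), so MPC1 was the larger part in both groups. The part of DCAF6 reads in these ratios and shares was not tested.

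The ratio of LDHA to each other gene with at least 10 counts in every library was lower in all GLCC1 siRNA libraries than in all control libraries. The log2 ratio of LDHA to LDHD differed by -1.66 (SE 0.13), to SLC16A1 by -1.33 (SE 0.09), to SLC16A3 by -1.20 (SE 0.18), to BSG by -1.54 (SE 0.17), to MPC1 by -1.41 (SE 0.05) and to MPC2 by -2.02 (SE 0.10). With that to LDHB, these are 7 ratios that share the LDHA counts. In each of them the exact permutation p was 0.1 (adjusted over 7 ratios 0.1), which is the smallest that this design allows.

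**Figure D3:**
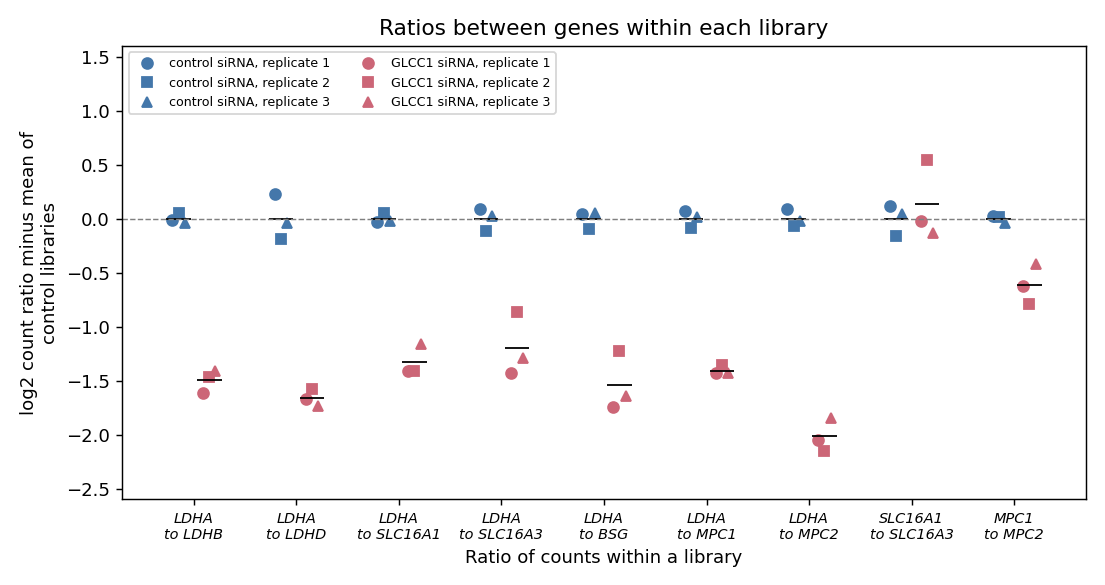
Log2 ratio of raw counts of 2 genes within each library, less the mean of the control libraries, with symbols for replicates, control siRNA in blue, GLCC1 siRNA in red and a line at each mean. The 7 ratios of LDHA to another gene are lower in all GLCC1 siRNA libraries, whereas those of SLC16A1 to SLC16A3 overlap, with ratios of 1.63 to 2.60 in the GLCC1 siRNA libraries.

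Per kilobase of canonical transcript, the order in the control libraries was LDHA, LDHB, BSG (382 CPM), SLC16A1 (205), SLC16A3 (167), MPC1 (22.0), MPC2 (9.92) and LDHD (3.52), and no neighbours in this order overlapped. In the GLCC1 siRNA libraries LDHB came before LDHA. The range of LDHA (349 to 399.5 CPM per kilobase) over these libraries overlapped with that of BSG (264 to 363). Within each single library LDHA was nevertheless above BSG. The order of the other genes was unchanged, with SLC16A1 at 149, SLC16A3 at 111, MPC1 at 16.8, MPC2 at 11.6 and LDHD at 3.20. In GENCODE 44, 76.5% of the LDHB transcript is shared with exons of another gene entry, and any effect on its count was not tested.

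Other carriers of the same family moved in both directions. Of the 10 tested of 15 listed (SLC16 family members, sodium-coupled carriers, the partner EMB and the lactate receptor HCAR1), 3 rose, 1 fell and 6 did not pass. Over all genes 31.6% of those tested passed, and 45.1% of those with a mean of 1 CPM or more. The median log2 fold change was 0.57, or 0.37 among the 8 with at least 1 CPM. SLC16A9, a carnitine carrier, rose from 11.4 ± 0.52 to 34.6 ± 5.55 CPM (SD, n = 3 each; log2 fold change 1.59, adjusted p = 9.1e-07), and SLC16A14, an orphan member, rose from 11.1 ± 0.76 to 23.2 ± 2.41 CPM (SD, n = 3 each; 1.06, adjusted p = 1.7e-05). SLC16A5 fell by 0.77 on the log2 scale (adjusted p = 5.2e-05). SLC16A4 passed narrowly (0.45, adjusted p = 0.041) and did not without GLCC1 siRNA replicate 2 (0.27, adjusted p = 0.053) or without any of the control libraries (adjusted p = 0.073 to 0.146). SLC5A8, SLC5A12 and EMB were at 0. Among 3 tested genes that resemble lactate dehydrogenases, UEVLD fell by 0.56 on the log2 scale (adjusted p = 0.0025) and LDHAL6A did not pass (0.900 ± 0.16 to 0.444 ± 0.15 CPM, SD, n = 3 each; adjusted p = 0.073, and 0.0498 without GLCC1 siRNA replicate 2).

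Enzymes that make or use pyruvate moved in both directions. Of 23 tested, 7 rose, 8 fell and 8 did not pass, with a median log2 fold change of -0.04. Among all genes with a mean of 1 CPM or more, 45.1% passed. PDK4, a kinase that switches off the pyruvate dehydrogenase complex, had the highest rise of those named (3.37 ± 0.37 to 11.6 ± 2.05 CPM, SD, n = 3 each; log2 fold change 1.76, adjusted p = 4.5e-06). The other kinases of the complex did not rise. PDK1, at 143 ± 7.65 and 152 ± 18.4 CPM (SD, n = 3 each), did not pass (0.09, adjusted p = 0.53). PDK3 did not pass either (-0.20, adjusted p = 0.19), and PDK2 fell (-0.51, adjusted p = 0.018). DLAT, the acetyltransferase subunit of that complex, fell from 116 ± 0.96 to 49.3 ± 8.27 CPM (SD, n = 3 each; -1.24, adjusted p = 2.5e-06). The phosphatases that switch the complex on went apart, PDP2 with -0.83 (adjusted p = 1.8e-05) and PDP1 with 0.63 (adjusted p = 2.5e-04). ME1, which makes pyruvate from malate, rose by 0.77 (adjusted p = 2.6e-05), and PCK2, the mitochondrial phosphoenolpyruvate carboxykinase, by 0.68 (adjusted p = 1.4e-04) on the log2 scale.

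The shuttles that return electrons from cytosolic NADH to mitochondria include 10 tested genes, of which 1 rose, 4 fell and 5 did not pass (median log2 fold change -0.12). This is near the 45.1% that passed among all genes with a mean of 1 CPM or more. GPD1L fell by 1.11 (adjusted p = 3.3e-06), MDH2 by 0.75 (adjusted p = 4.4e-05) and GOT2 by 0.36 (adjusted p = 0.0039) on the log2 scale. SLC25A12 rose by 0.33 (adjusted p = 0.037). This rise did not pass without any of 5 libraries (adjusted p = 0.067 to 0.171), GLCC1 siRNA replicate 2 being the exception. Of 7 genes of acid extrusion, 2 rose, 1 fell and 4 did not pass (median 0.16), also near that 45.1%. The carbonic anhydrase gene CA9, known as a gene of hypoxia, rose from 3.71 ± 0.84 to 10.3 ± 2.16 CPM (SD, n = 3 each; log2 fold change 1.48, adjusted p = 6.8e-05), CA12 rose by 0.39 (adjusted p = 0.0028) and CA2 had a log2 fold change of -1.18 (adjusted p = 3.9e-07).

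Transcription factors known to act on LDHA moved in both directions. Of 8 tested, 2 rose, 2 fell and 4 did not pass, with a median log2 fold change of 0.07. This is near the 45.1% that passed among all genes with a mean of 1 CPM or more. MYC had 155, 140.1 and 151 CPM in the control libraries and 118, 89.1 and 112 CPM in the GLCC1 siRNA libraries. The groups did not overlap, and replicate 2 of the GLCC1 siRNA libraries was the lowest. The log2 fold change was -0.48 (SE 0.10, adjusted p = 0.0030), and -0.36 without that replicate. KLF4 fell by 0.61 (adjusted p = 2.2e-04). HIF1A rose by 0.29 (adjusted p = 0.022) and ARNT, its partner, by 0.25 (adjusted p = 0.038). The call of HIF1A was lost without control replicate 1 (adjusted p = 0.090), control replicate 2 (0.127) or GLCC1 siRNA replicate 1 (0.063), and that of ARNT without any of 5 libraries (0.060 to 0.172), GLCC1 siRNA replicate 2 being the exception.

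**Figure D4:**
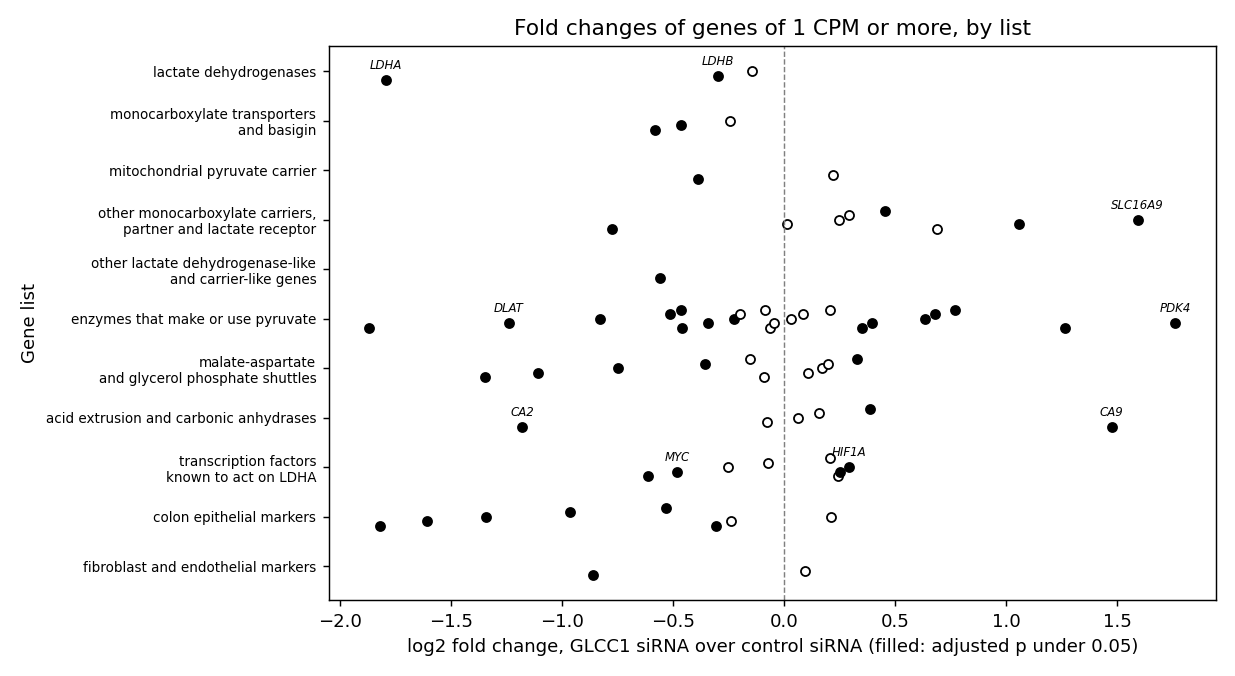
Log2 fold change (GLCC1 siRNA over control siRNA) of each gene with at least 1 CPM, in rows by gene list and filled where the adjusted p was under 0.05. LDHA is at -1.79 in its row, while the row of enzymes that make or use pyruvate runs to PDK4 at 1.76.

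The genes whose pattern over the 6 libraries was most like that of LDHA were found among 10376 genes whose mean reached 10 CPM, by the Euclidean distance between log2 CPM values, each less the gene's own mean in the control libraries. They were MRS2 (distance 0.05), a mitochondrial magnesium channel, PYGL (0.14), the liver glycogen phosphorylase, MYCBP (0.15), a MYC-binding protein, LAPTM4B (0.15), a lysosomal membrane protein, and EIF4G2 (0.16), a translation initiation factor. MRS2 had 75.1, 72.9 and 75.7 CPM in the control libraries and 20.02, 21.6 and 22.5 CPM in the GLCC1 siRNA libraries. This is a log2 fold change of -1.80. EIF4G2, the most abundant of the 5, went from 1425 ± 78.3 to 419 ± 42.2 CPM (SD, n = 3 each). By this distance genes are close mainly where their log2 fold change is near that of LDHA. Those of the 5 ran from -1.83 (MYCBP) to -1.75 (PYGL) for that reason. Whether any of them is regulated together with LDHA was not tested.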

How the data were processed

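For each of 6 libraries the authors deposited a file of unnormalized counts by gene symbol, made from paired-end reads mapped to hg19 with TopHat 2.0.11 on an Ensembl GRCh37 index and counted with HTSeq in union mode. HTSeq leaves out reads on more than 1 gene (8.19% to 8.89% of reads here were ambiguous), which lowers the counts of overlapping genes. Reads on no gene were excluded from library sizes (11.2% to 14.2%). Genes whose counts summed to fewer than 5 in each of the groups were removed, as in the study's methods.

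Counts were compared in edgeR 4.0.16 (R 4.3.3) with TMM factors (0.950 to 1.05) and the robust quasi-likelihood test, with Benjamini-Hochberg adjustment over 23074 genes. The fit was also run on counts simulated from its own model. Such counts cannot show how well that model holds for these libraries. Alternatives were DESeq2 1.42.0, library totals, DESeq2 size factors, filters of 1 count in any library and 10 in every library, the replicate block, pseudogene counts added, and each library left out. Ratios used counts within a library. Genes were named from the lists where the adjusted p was under 0.05 and the mean at least 5 CPM, at most 6 a list, plus MYC and HIF1A, and 5 genes most like LDHA. The members and lists were chosen with earlier results of these data known. Other genes were chosen after their values were seen. These were named for a pseudogene, antisense or overlap relation to a member, for the order of LDHA, beside PDK4 or as single markers. Positions, canonical transcripts and overlaps come from GENCODE 44 on hg19, and the promoter sequence from RefSeq on GRCh38.p14. Python 3.11.15 was used for tables and figures.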

Additional observations from a re-analysis of the deposited data

How the results depend on the processing

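Without control replicate 3 the number of these genes that passed was 3, and across the 6 libraries left out in turn it was between 3 and 6. Without GLCC1 siRNA replicate 2 the log2 difference in the ratio of SLC16A1 to SLC16A3 was reversed to -0.075, and its range over the libraries left out was -0.075 to 0.26. The cause was not tested. The number of all genes that passed was 9920 of 22470 tested without GLCC1 siRNA replicate 2. It was between 5221 and 6614 with any other library left out, and between 6522 and 7857 in the other alternatives. The shares of 31.6% and 45.1% given above come from all 6 libraries and were not recomputed without that replicate. LDHA stayed between -1.83 and -1.67 in all alternatives. Library totals moved the median of all genes from 0.03 to 0.15, and the log2 fold changes of the 9 tested members moved up with it. Of 108 alternative values of the members, 99 kept their direction and side of the threshold, 3 came to pass and 6 no longer passed.

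Libraries of the same replicate number deviated from their group means with correlations of -0.18, -0.32 and -0.01 over 14880 genes, which are not independent replicates. Between libraries of different numbers these correlations ran from -0.27 to 0.29. With 3 libraries a group they cannot show whether libraries of the same number were prepared together, and the main test did not pair them. With the replicate block, 6522 genes and 5 of the members passed, and the calls of HIF1A, ARNT and SLC25A12 were lost. At this depth LDHC and SLC16A7 had too few counts for a change to be read, and why they are so few was not tested.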
